A study of Mus musculus with 46 samples.

Results

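The 164411 H3.3 peaks listed for day 0 (D0) and day 3 (D3) of reprogramming were taken from 1502717 peaks of all marks in the series. They came from 2 of the 30 samples with a peak list and from 2 of the 16 H3.3 samples, and no peak of these 2 lists was left out by its values. Both samples were mouse embryonic fibroblasts (MEFs) prepared from E13.5 embryos that carry an IRES-EGFP cassette after the stop codon of Pou5f1, the gene of the pluripotency factor Oct4. D0 cells had received no factor. D3 cells had been given Oct4, Sox2, Klf4 and c-Myc (OSKM) by retroviral pMXs vectors with polybrene. They were then grown without feeders. The study lists mESC, KOSR and FF medium for reprogramming and does not name the one used for these cells. FF medium holds knockout serum replacement, LIF, ascorbic acid, bFGF, CHIR99021 and N-2. Neither sample was sorted, so D3 is a mixture of cells that later split into a Thy-1- fraction and a Thy-1+ fraction. The same lot of H3.3 antibody was used for both. The peaks were counted by genomic class, by length and by gene, to ask what was gained and lost in the first 3 days of factor expression.

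H3.3 is a histone H3 variant that is placed into chromatin outside DNA replication. The Hira complex places it at promoters, enhancers and bodies of active genes, and Atrx with Daxx places it at telomeres and other repeats. Fibroblasts that begin to reprogram lose their mesenchymal programme before pluripotency genes become active.

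High-scoring intergenic peaks seen on 1 day only serve as examples of the sequence behind the counts: the 2 lost peaks with the highest scores, a gained peak with high input and a gained peak with ordinary input. Each line holds the central 200 bases of a peak on the plus strand of mm9. Capitals mark letters that matched, on either strand, the AP-1 letters TGANTCA, the Tead letters CATTCC, the Runx letters TGTGGTTT, the Pou octamer ATGCAAAT, the Sox letters ACAATG, the Klf letters GGGNGTGG or the Myc E-box CACGTG. Of all 200-base tiles of mm9, 5.93% hold the AP-1 letters, 10.8% the Tead, 1.79% the Runx, 1.73% the octamer, 12.6% the Sox, 4.63% the Klf and 1.95% the E-box letters. A match is only a run of letters.
Lost 1, chr1:93569444-93569643: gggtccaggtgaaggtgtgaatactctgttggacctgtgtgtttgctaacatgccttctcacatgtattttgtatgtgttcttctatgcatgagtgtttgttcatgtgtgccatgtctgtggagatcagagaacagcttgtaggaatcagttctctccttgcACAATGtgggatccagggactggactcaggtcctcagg
Lost 2, chr17:15939854-15940053: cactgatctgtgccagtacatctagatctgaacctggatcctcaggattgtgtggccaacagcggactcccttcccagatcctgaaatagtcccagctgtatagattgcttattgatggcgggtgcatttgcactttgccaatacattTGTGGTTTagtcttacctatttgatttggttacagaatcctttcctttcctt
Gained 1, chr6:3151229-3151428: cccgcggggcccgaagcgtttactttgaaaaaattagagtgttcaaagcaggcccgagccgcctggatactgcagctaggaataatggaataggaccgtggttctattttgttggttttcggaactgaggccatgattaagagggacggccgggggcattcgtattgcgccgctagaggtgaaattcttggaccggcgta
Gained 2, chr15:93019786-93019985: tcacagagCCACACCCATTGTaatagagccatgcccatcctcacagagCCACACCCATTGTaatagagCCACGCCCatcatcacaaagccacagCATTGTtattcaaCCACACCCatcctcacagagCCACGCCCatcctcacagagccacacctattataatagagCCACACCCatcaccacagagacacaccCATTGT
Lost 1 and Lost 2 were the D0 intergenic peaks with the highest normalized tag counts that no D3 peak overlapped. The normalized tag count, called the score here, is the number of ChIP tags in the whole peak scaled to 10 M mapped tags, so it grows with the peak's length. Lost 1 scored 148.2 over 10.4 kb and lay 128 kb from the start of Twist2, which encodes a mesenchymal helix-loop-helix factor. Lost 2 scored 115 over 6.65 kb and lay 18.2 kb from the start of Rgmb, a co-receptor for bone morphogenetic proteins. Each centre held a single match, and the input in both peaks was close to the median of D0 peaks, at 1.19 and 1.25 times.

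Gained 1 had the third highest score among the D3 intergenic peaks that no D0 peak overlapped. It scored 73.5 over 1.005 kb, and the input tags per kb in it were 11.4 times the median of D3 peaks. In its printed bases, 76.8% of the 20-base words also occur at chr17:39979708-39985965, which held peaks with input over 10 times the median in both libraries. Per the study's methods, reads that mapped to more than 1 locus were removed. Gained 2 was the second among the gained intergenic peaks whose input was at most 10 times the median. It scored 51.1 over 2.73 kb with input at 0.773 times the median, and its centre is a tandem repeat with 6 Klf and 4 Sox matches. Gained 1 was therefore not like the lost regions in input. Of the D3 peaks, 24 had input over 10 times the median, 4 of them gained, and of the D0 peaks 22, 4 of them lost, so these regions were few among the counts that follow.

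H3.3 covered less of the genome on D3 than on D0. The D0 list held 89614 peaks on placed chromosomes and 130 Mb, the D3 list 74595 peaks and 81.4 Mb. The libraries had 27.0 M and 25.8 M tags, close to each other, but 19.1% of the D0 tags and 11.3% of the D3 tags lay in peaks. The median peak had a length of 783 bp and a score of 10.8 on D0, and 643 bp and 8.71 on D3. The peaks of D3 were thus shorter and fewer. Per kb, the median score was 13.6 and 13.2, values that lie near the calling limit of the peaks (scores of 6.31 on D0 and 6.19 on D3) and so cannot show whether the density was alike. Peaks longer than 20 kb numbered 103 on D0 and 10 on D3, and the longest measured 124.6 kb and 32.9 kb. Each day had 1 library, so no difference was tested. Intervals are 95% intervals (Wilson for shares, Newcombe for their differences) and cover counting error only, not the spread between cultures. Tags in peaks, length and day move together here, and their part in each result below was not tested. In bulk samples, fewer cells with H3.3 at a place and less H3.3 there in each cell cannot be told apart. A region without a peak may still hold H3.3 at a level too low to be listed. The listed scores reached down to 4.82 on D0 and 5.03 on D3, below the stated calling limits.

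Of the D0 peaks, 58.7% (58.4 to 59.0) were lost, meaning that no D3 peak shared a base with them. Of the D3 peaks, 42.2% (41.8 to 42.5) were gained, with no base shared with a D0 peak. When both lists were limited to their 74595 highest scores, the lost share was 53.9% and the gained share 45.3%. The excess of loss over gain was smaller with equal numbers, and loss was still the larger share.

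Loss was more frequent between genes than at gene ends. By the midpoint of the peak, 65.4% of intergenic, 58.6% of intron, 50.8% of exon, 47.4% of promoter-TSS and 43.2% of TTS peaks of D0 were lost. Here promoter-TSS is the stretch from 1000 bp before to 100 bp after a start site of a protein-coding gene, and TTS the stretch from 100 bp before to 1000 bp after its end. The intergenic share exceeded the promoter share by 18.05 percentage points (16.7 to 19.4), and by 18.8 points with equal numbers. Gain followed a flatter order, at 44.9% of intergenic, 43.9% of intron, 38.4% of exon, 31.8% of TTS and 30.9% of promoter-TSS peaks of D3. Promoters and gene ends thus had the lowest turnover in both directions.

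The classes of the 2 lists differed accordingly. With equal numbers, intergenic peaks made up 30.8% of the D0 list and 26.3% of the D3 list, a difference of -4.47 points (-4.93 to -4.01). Introns held 51.5% and 54.6%, and promoter-TSS peaks 7.17% and 6.91%. In the full lists the promoter-TSS shares were 6.92% and 6.91%. Lost peaks were 34.1% intergenic and kept D0 peaks 25.6%. Gained peaks were 56.8% intronic, against 52.2% of the kept D0 peaks. All of these shares of intergenic peaks were below the 61.2% of the genome that is intergenic.

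**Figure D1:**
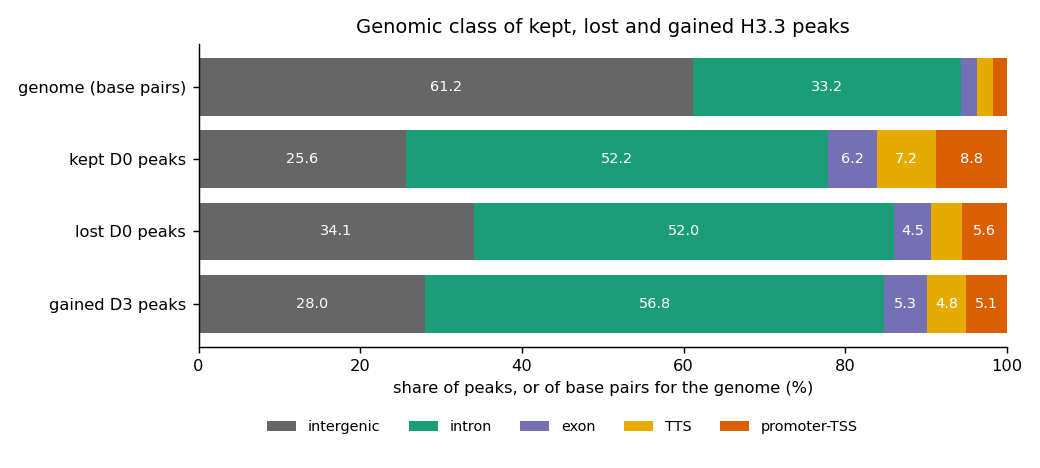
Horizontal bars give the share (%) of each genomic class in the genome's base pairs, in kept and lost D0 peaks and in gained D3 peaks. Lost peaks have the widest intergenic part of the peak bars (34.1%), and gained peaks the widest intron part (56.8%).

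Length separated lost from kept peaks more than class did. Peaks of at most 500 bp, nearly all of them at the 500 bp that the caller starts from, were lost in 80.4% of cases. The lost share was 68.7% above that and up to 1000 bp, 49.6% up to 2000 bp and 21.97% up to 5000 bp. Over 5000 bp, 79 of 3339 D0 peaks, or 2.37%, were lost. Gain had the same order, from 60.2% of D3 peaks of at most 500 bp to 4 of 1347 over 5000 bp, or 0.297%. Longer peaks have more bases that can meet a peak of the other day, so part of this order is built into the overlap. The score gave the same picture, with 81.9% lost in the lowest decile of D0 scores and 8.09% in the highest, and 64.4% gained in the lowest decile of D3 scores and 4.18% in the highest.

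The class order held at one length. Among D0 peaks of exactly 500 bp, 84.7% of intergenic and 74.1% of promoter-TSS peaks were lost. Among D3 peaks of exactly 500 bp, 61.8% of intergenic and 48.7% of promoter-TSS peaks were gained. The difference between the classes was 10.6 points for loss at this length, smaller than over all lengths. Chromosome X stood apart from the autosomes: it held 589 peaks on D0 and 364 on D3, of which 83.2% were lost and 70.6% gained. On all autosomes the shares were 58.5% and 42.0%. These shares of X and autosomes are over all lengths, and D0 peaks of X were shorter. The median length of lost and kept D0 peaks was 500 and 768 bp on X, and 633 and 1515 bp on autosomes. The part of length in the X shares was not tested.

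**Figure D2:**
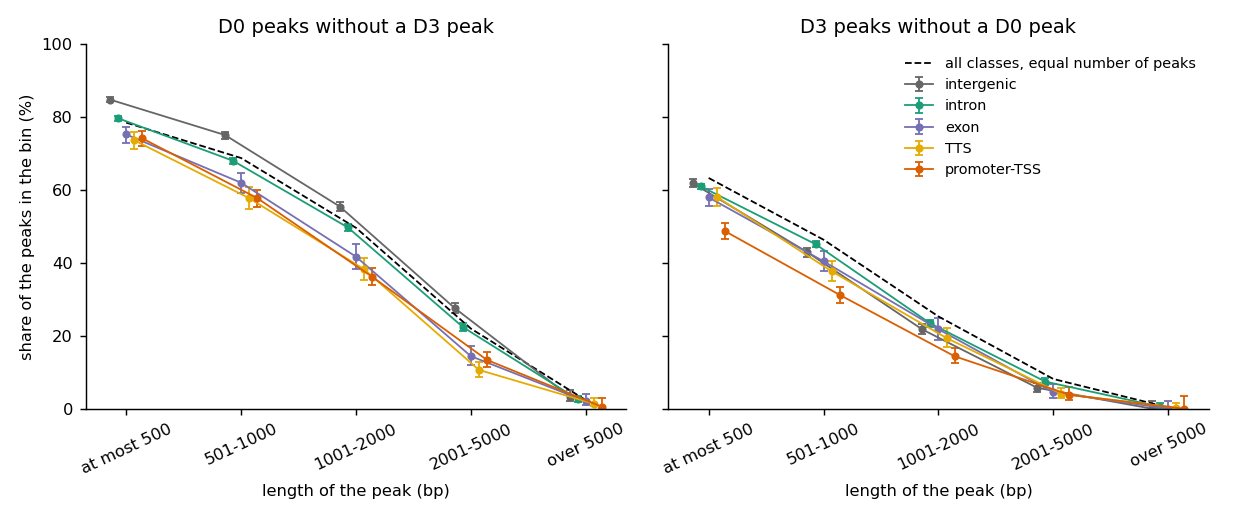
Points give the share (%) of peaks in each length bin (bp) and genomic class that had no overlapping peak on the other day, with 95% Wilson intervals; the dashed line pools the classes with equal numbers of top peaks. Both panels descend from the shortest bin (80.4% of D0 and 60.2% of D3 peaks over all classes) to the longest (2.37% and 0.297%), and the intergenic line lies highest for loss up to 5000 bp.

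Long D0 domains were rarely lost but were thinned and split. A kept D0 peak over 5000 bp had a median 59.0% of its bases under D3 peaks, and 74.9% of such domains held at least 2 D3 peaks. Only 2.98% of them were fully covered on D3. The 34274 regions formed by overlapping peaks of both days covered 84.2 Mb by D0 peaks and 60.1 Mb by D3 peaks. Their median log2 ratio of summed scores, D3 over D0, was -0.51 (-0.52 to -0.50), and 32.6% were at least 2-fold lower against 6.84% at least 2-fold higher. The median ratio of the score per kb was -0.08 on the log2 scale. Only bases that passed the calling limit enter the score per kb, so it says nothing about bases that fell below that limit. Intergenic regions had the lowest median of the classes (-0.61) and TTS regions the highest (-0.32).

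Gained peaks lay closer to peaks of the other day than lost peaks did. The median gap was 2.08 kb from a gained peak to the nearest D0 peak and 4.39 kb from a lost peak to the nearest D3 peak. Within 1000 bp lay 34.1% of the gained and 21.4% of the lost peaks. The D0 list covers more bases, and its part in these gaps was not tested.

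Over all lengths, peaks of the histone marks of active genes overlapped lost and gained H3.3 peaks less often than kept ones. H3K4me3, the mark of active promoters, was called on D0 in 20.1% of lost, 39.8% of kept D0 and 11.4% of gained H3.3 peaks. On D3 it was called in 11.2%, 29.1% and 11.5%. H3K36me3, the mark of transcribed gene bodies, was called on D0 in 23.4% of lost, 37.2% of kept D0 and 27.3% of gained peaks, and on D3 in 14.1%, 28.7% and 20.4%. Over all lengths, gained peaks therefore met H3K36me3 more often than lost peaks on both days, and H3K4me3 less often on D0. Among peaks of exactly 500 bp, H3K36me3 was called in 23.9% of lost and 25.1% of gained peaks on D0, a smaller contrast. On D3 it was called in 14.1% and 17.97% of them. By class at this length, the D0 share was higher in lost peaks for introns (31.65% against 30.98%) and TTS (56.9% against 55.8%). It was higher in gained peaks for the intergenic, exon and promoter-TSS classes. Kept D3 peaks of exactly 500 bp met H3K36me3 in 26.0% on D0 and 17.6% on D3. Gained peaks thus lay close to kept D3 peaks for this mark at this length. At exactly 500 bp, the D0 H3K4me3 shares were 13.4% for lost and 17.3% for kept peaks, so most of the contrast went with length. At promoter-TSS peaks of all lengths, D0 H3K4me3 was called in 66.1% of lost, 81.1% of kept and 55.5% of gained peaks. The lists of both marks were smaller on D3: H3K4me3 peaks covered 67.9 Mb on D0 and 51.0 Mb on D3, and H3K36me3 peaks 153 Mb and 84.0 Mb. The part of list size in the lower D3 shares was not tested.

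AP-1, the dimers of Fos and Jun proteins that occupy fibroblast enhancers, had its letters more often in H3.3 peaks of D0 than in those gained by D3. In the central 500 bp of intergenic peaks, TGANTCA occurred in 27.8% (27.1 to 28.4) of lost and 28.3% (27.4 to 29.2) of kept D0 peaks. It occurred in 19.1% (18.3 to 19.96) of gained and 23.3% of kept D3 peaks, against 14.4% of intergenic 500-base tiles. The stricter letters TGACTCA occurred in 19.6% of lost, 20.8% of kept D0 and 12.1% of gained peaks, against 7.45% of tiles. At exactly 500 bp the AP-1 shares were 22.9% for lost, 22.5% for kept D0 and 19.0% for gained peaks, a smaller contrast. Lost minus kept D0 peaks gave -0.53 points (-1.65 to 0.59) for TGANTCA and -1.15 points (-2.15 to -0.15) for TGACTCA. When at least 50% of a peak had to be covered to count as kept, the difference for TGANTCA was 4.07 points (2.72 to 5.39), so its direction depended on the overlap required.

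The letters of the delivered factors showed smaller contrasts. The Pou octamer occurred in 2.97% of lost, 2.91% of kept D0 and 3.77% of gained intergenic peaks, all below the 4.90% of tiles. The Sox letters occurred in 25.2%, 24.6% and 27.6%, against 30.04% of tiles. The Klf letters occurred in 13.0% of lost, 16.3% of kept D0 and 15.7% of gained peaks, against 10.6% of tiles, and the E-box in 6.44%, 6.44% and 5.98%, against 4.26%. GC content was 45.3% in lost, 46.1% in kept D0, 44.9% in gained windows and 40.9% in tiles, and its part in these shares was not tested.

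At the level of genes, H3.3 was present at slightly fewer genes on D3 and at a lower score in most. Of 22367 protein-coding genes, 13198 (59.0%) held the midpoint of a D0 peak within the gene or 1000 bp of it, 12345 (55.2%) that of a D3 peak, and 11191 both. By this rule 2007 genes were lost, 15.2% of those bound on D0, and 1154 were gained, 12.6% of those not bound on D0. Among genes bound on both days, 33.2% had a score at least 2-fold lower on D3 and 7.61% a score at least 2-fold higher. The median log2 ratio was -0.57 (-0.59 to -0.54). Lost genes had a median D0 score of 12.8 and gained genes a median D3 score of 8.42, against 65.3 on D0 for genes bound on both days, so the turnover lay mostly at weakly bound genes. Of the lost genes 1355 had a single D0 peak, and of the gained genes 909 a single D3 peak.

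The midpoint rule misread small genes under long peaks. Junb, an AP-1 subunit, counted as gained with a D3 score of 281.2, yet both days covered 100% of its window. Surf2 and Actb (beta-actin) counted as lost with D0 scores of 370.2 and 319.4, yet D3 peaks still covered 61.5% and 77.6% of their windows. The same held for Gnb2l1, Snapc5 and Sox15 among the 6 lost genes with the highest scores, and for Cd68, AI413582, C130040N14Rik, Nme2 and Rps19 beside Junb among the 6 gained ones. Of 64 genes gained with a score of at least 50, 59 (92.2%) held part of a D0 peak. Of 144 genes lost with such a score, 51 (35.4%) held part of a D3 peak. A second measure was therefore added after these values were seen: the part of each peak inside the gene window (the gene and 1000 bp on each side), with its score in proportion, and the share of the window covered.

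By this measure, 13837 windows held part of a D0 peak and 12827 part of a D3 peak. Of the former, 13.6% had no part of a D3 peak, and of the windows without a D0 peak 10.3% gained one. Of 11950 windows with both, 8972 were lower and 2975 higher on D3, with 31.1% at least 2-fold lower, 5.45% at least 2-fold higher and a median log2 of -0.54. The measures gave nearly equal medians over all genes and differed for single small genes. The values below are scores inside the window unless stated otherwise, and each is from 1 library.

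The 6 windows with the highest D0 scores and no D3 peak included genes of the extracellular matrix and of signalling. Adamts2 (chr11:50415586-50621075), the protease that trims procollagen, had 13 D0 peaks and a score of 225.4, and no D3 peak. Bgn, the matrix proteoglycan biglycan on chromosome X, had 78.01% of its window covered on D0, with a score of 152.6, and 0% on D3. Ptgs1, the prostaglandin synthase Cox-1, had 46.7% covered on D0, with a score of 171.3, and 0% on D3. The others were Gabrg3, a GABA receptor subunit, at 150.4, Il1rap, the interleukin-1 receptor accessory protein, at 130.1 and Pdzrn4 at 117.9. Bgn was at 0 in each of the 10 later reprogramming and pluripotent libraries, and at 163.7 and 152.3 in the MEF and D4 libraries of the transdifferentiation series. Ptgs1 was at 0 in D6T- and at 81.6 in D6T+, the Thy-1- and Thy-1+ cells of day 6. Adamts2 was at 0 in D6T- and at 53.8 in D6T+. The other 3 did have part of a peak in D6T-, with Pdzrn4 at 60.1 in D6T- and 34.9 in D6T+, Gabrg3 at 26.8 and 32.1, and Il1rap at 1.51 and 41.6. In the Thy-1- cells of day 6, 3 of the 6 windows were thus at 0, and Pdzrn4 was higher there than in the Thy-1+ cells.

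The lowest ratios were taken among windows with a score of at least 100 on either day, and these windows kept 1 or 2 peaks. Rbm47, an RNA-binding protein, went from 12 peaks and 244.5 to 1 peak and 5.81, a log2 ratio of -5.40 (-6.24 to -4.66). Tmem108 went from 422.0 to 14.1, the actin-binding Lsp1 from 199.4 to 7.35, and Hmcn2, a hemicentin of the matrix, from 171.0 to 6.39. Mitf, a helix-loop-helix factor of melanocytes, went from 221.9 to 9.29. Mki67, which encodes the proliferation antigen Ki-67, went from 33.04% of its window covered and a score of 138.4 to 1.75% and 5.81. By the midpoint rule, Ccl2, a monocyte chemokine, Bcl2l11, which encodes the death inducer Bim, and Gm128 were also among the 6 lowest ratios. Inside the window Ccl2 went from 78.7 to 14.0, Bcl2l11 from 185.7 to 13.6 and Gm128 from 96.1 to 49.9, with log2 ratios of -2.49, -3.78 and -0.94.

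Windows gained by D3 were covered thinly. Pde5a, a cyclic GMP phosphodiesterase, had no D0 peak and 7 D3 peaks with a score of 88.3 over 5.43% of its window. Pfkfb3, an activator of glycolysis, reached 59.8 over 14.0%, and Nol11, a factor of ribosomal RNA processing, 49.3 over 14.7%. Klhdc5, Lix1 and Stk32a reached 59.1, 42.6 and 48.6. Lix1, Pde5a, Pfkfb3 and Nol11 had their D3 peaks followed by scores of 182.0, 183.6, 137.7 and 182.5 in D6T-, and 10.7, 17.0, 6.52 and 61.5 in D6T+. All 4 were higher in the Thy-1- than in the Thy-1+ library of day 6, of which 19.3% and 10.9% of tags lay in peaks.

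The highest ratios among windows with peaks on both days were in Anxa8, an annexin (6.86 to 102.4, log2 3.90), and Ralgapa2, a Ral GTPase activator (16.3 to 126.8, log2 2.96). Gfm1, a mitochondrial elongation factor, went from 29.7 to 164.4, and Pcolce2, an enhancer of procollagen cleavage, from 48.8 to 191.8. Mllt3, a subunit of the super elongation complex, had 10 D0 peaks and 42 D3 peaks, with 3.82% and 16.3% of its window covered and scores of 139.5 and 563.1. In Mllt3 the score was 1478 in D6T-, 418.8 in D6T+, 86.3 in D12S+ (SSEA-1+ cells of day 12), 30.6 in D16S+ and 16.4 in iPSCs. Among the SSEA-1- cells, Mllt3 scored 1306 in D12S- and 570.6 in D16S-. Ralgapa2 was at 742.8 in D6T-, 141.4 in D6T+, 88.0 in D12S+, 8.27 in D16S+ and 79.5 in iPSCs, with 659.3 in D12S- and 210.4 in D16S-. Both windows had their highest score in D6T- and stayed high in the SSEA-1- cells of day 12. Srp54b went from 21.5 to 105.1, but near-identical copies of Srp54 exist, and reads common to copies were removed, so its values are uncertain. Of the 6 highest ratios by the midpoint rule (among them Scx, Midn, Rpl38, Rpl7 and Rps24), Scx alone was at least 2-fold higher inside the window. Scx, a tendon helix-loop-helix factor, had 27.6% of its window covered on D0 and 100% on D3, with scores of 16.3 and 49.4.

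Single intron peaks named some of these genes again. The gained intron peaks with the highest scores included those in Anxa8 (81.3 over 6.71 kb) and Pcolce2 (70.5 over 3.70 kb). The Pcolce2 peak lay 1.41 kb from a D0 peak and scored 199.7 in D6T- and 46.6 in D6T+. The lost intron peaks with the highest scores lay in Sash1, a scaffold protein (146.7), in Nid1, the basement membrane protein nidogen (142.8), and in Smo, the Hedgehog signal transducer (122.2). The Smo peak had input at 11.6 times the median of D0 peaks, the other 2 at 1.14 and 1.11 times.

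Fibroblast and mesenchymal genes had the lowest median of the gene lists, the short marker lists aside. Of the 45 genes found in the annotation, 43 windows held part of a D0 peak and 39 part of a D3 peak, with 5 lost and 1 (Lum) gained. Over all windows, 13.6% of those with a D0 peak were lost and 10.3% of those without one were gained. Of the 38 with both, 37 were lower on D3 and 1 (Cdh2) was higher. At least 2-fold lower were 27, against 31.1% of all windows with both. Their median log2 was -1.40, against -0.54 over all windows, and the median share of the window covered went from 63.1% to 17.4%.

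The structural genes of the matrix showed the thinning most plainly. Col5a1 (chr2:27741945-27895034), a chain of type V collagen, had 18 D0 peaks over 91.0% of its window and 32 D3 peaks over 19.9%, with scores of 2173 and 392.8. Tnc, the matrix glycoprotein tenascin C, lay under 1 D0 peak that covered 100% of the window and under 21 D3 peaks over 30.3%, with scores of 1353 and 245.5. A single block had thus become many short peaks. Fn1 (fibronectin) went from 93.5% to 42.2% covered, Col1a1 from 100% to 59.4% and Fbn1 (fibrillin) from 67.9% to 38.1%. Col6a3 went from 680.0 to 56.2 in score.

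Transcription factors and receptors of mesenchyme lay lower as well. Twist2 went from a score of 683.1 to 73.8, and Prrx1, a homeobox factor of mesenchyme, from 756.3 to 295.8. Zeb1, a repressor of epithelial genes, went from 518.5 to 87.3. Twist1 and Snai2, factors of epithelial to mesenchymal transition, were covered over 33.5% and 33.7% of their windows on D0 and at 0% on D3. The receptors Pdgfra and Pdgfrb went from 226.4 to 18 and from 385.8 to 93.7, and Thy1, the surface marker used to sort day 6 cells, from 69.3 to 16.1. Cd44 (1391 to 959.6) and Sparc (539.4 to 351.0) were lower by less. The defining fibroblast markers share members with the list, Lum among them, so they are not separate from it. All 8 marker windows with both were at least 2-fold lower, against 31.1% of all windows with both, and their median log2 was -1.87. Of the markers, 1 was lost and 1 gained, against 13.6% of all windows with a D0 peak and 10.3% of those without one. On D0, 9 of the 10 fibroblast markers held part of an H3.3 peak, against 61.9% of all windows. Defining pluripotent markers held part of a D0 peak in 3 of 5 windows, near that share of all windows. They held part of a D3 peak in 1 of 5, against 57.3% of all windows.

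**Figure D3:**
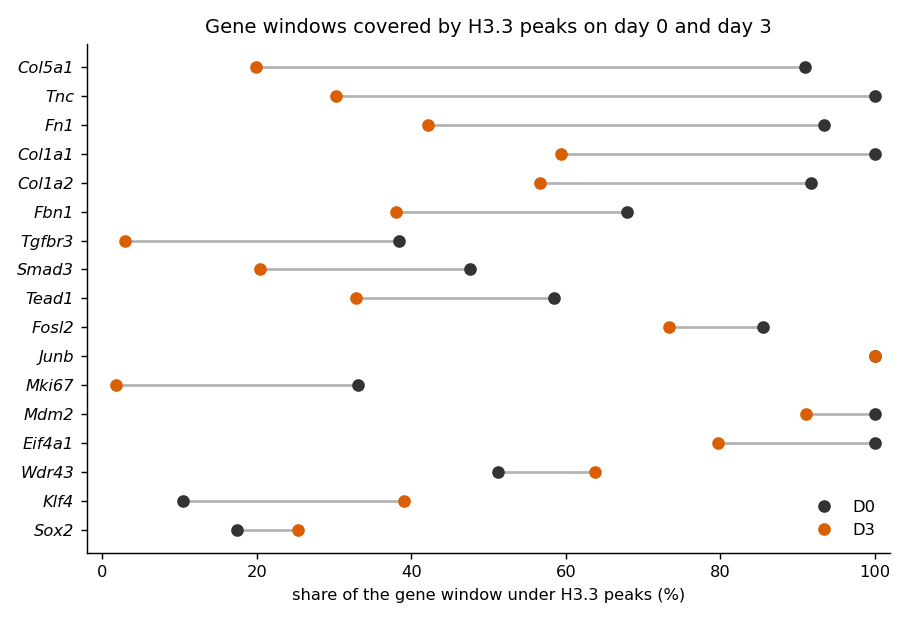
Points give the share (%) of each gene window under H3.3 peaks on D0 (dark) and D3 (orange), joined by a line, for 17 genes named in the text or the lists. Matrix genes such as Col5a1 (91.0% to 19.9%) and Tnc (100% to 30.3%) moved left, Wdr43 (51.3% to 63.7%) and Klf4 (10.5% to 39.1%) moved right, and both points of Junb lie at 100%.

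Genes of TGF-beta signalling, which sustains the mesenchymal state, lay between fibroblast genes and the background. Of 20 windows with both, 19 were lower and 10 at least 2-fold lower, with a median of -0.9987. Over all windows with both, 8972 of 11950 were lower and 31.1% at least 2-fold lower. Among the receptors, Tgfbr3 (betaglycan) went from 36 D0 peaks and a score of 1071 to 9 D3 peaks and 77.4, and Tgfbr2 from 559.8 to 95.8. Tgfbr1 was the exception, at 17.4 and 35.8. Among the latent binding proteins of the ligands, Ltbp1 went from 901.1 to 264.9 and Ltbp2 from 363.5 to 84.6. Of the signal transducers, Smad3 went from 818.1 to 286.9, while Smad2, Smad4 and the inhibitor Smad7 had log2 ratios of -0.57, -0.57 and -0.55, near the median of all windows. Receptors and binding proteins were thus lower by more than most of the Smad genes.

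Hippo and AP-1 genes lay closer to all genes. Of 15 Hippo and Tead windows, 13 were lower and 4 at least 2-fold lower, with a median of -0.70. Over all windows with both, 8972 of 11950 were lower and 31.1% at least 2-fold lower. Tead1, a DNA-binding partner of Yap, went from 1943 to 1016, Yap1 from 555.8 to 315.0 and its relative Wwtr1 (Taz) from 842.3 to 517.5. Tead4 and Nf2 were higher, at log2 0.26 and 0.47. Of 21 AP-1 and immediate early windows with both, 20 were lower and 5 at least 2-fold lower, with a median of -0.58. Jun went from 44.0 to 16.5 and Atf3 from 34.5 to 9.87, while Fos (32.3 and 27.5) and Junb (66.8 and 58.1) were nearly level. Fosl2 and Fosl1, the Fos-related subunits of fibroblasts, had log2 ratios of -0.56 and -0.41. AP-1 genes as a list thus lay near the median of all windows.

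Growth genes kept their H3.3. Of 37 windows of MYC targets of growth and ribosome biogenesis with peaks on both days, 19 were higher and 18 lower, with a median of 0.07. At least 2-fold lower was 1 window, against 31.1% of all windows with both. The median share of the window covered was 52.8% on D0 and 60.7% on D3. Wdr43 and Nop58, factors of ribosome assembly, went from 314.1 to 410.2 and from 164.7 to 244.1, and Tfrc, the transferrin receptor, from 38.2 to 68.9. Ncl (nucleolin) was at 261.6 and 290.5, and Npm1 (nucleophosmin) at 238.8 and 222.0. Rrs1 was the exception, at 34.4 and 11.6. Ribosomal protein genes, a list chosen after values were seen, had a median of -0.08 over 80 windows, with 1 at least 2-fold lower. Housekeeping genes had a median of -0.27 over 23.

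By their medians, genes of the cell cycle and of p53 lay between growth genes and the background. The median was -0.34 over 31 windows of the cell cycle, with 6 at least 2-fold lower, against 31.1% of all windows with both. It was -0.25 over 17 windows of cell cycle inhibitors and p53 targets, with 5 at least 2-fold lower, a share near that of all windows. Top2a (topoisomerase II) went from 283.3 to 182.7, while Ccna2 (cyclin A) went from 52.4 to 111.9. The p53 regulator Mdm2 (499.7 and 429.5) and the Cdk inhibitor Cdkn1a (142.3 and 140.4) were nearly level. Gadd45a, a stress response gene, went from 48.5 to 6.19. Of 24 interferon and innate response windows with a D0 peak, 6 were lost, among them Ifit3, Mx1, Mx2, Rsad2 and Cxcl10, against 13.6% of all windows with a D0 peak. The sum of their scores on D3 was 0.446 of that on D0, against 0.628 over all genes, while the median log2 over the 18 with both was -0.41, above the -0.54 of all windows. Irf1, an interferon regulatory factor, went from 74.5 to 5.81.

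Epithelial genes had a median ratio near that of all genes but a larger share of lost and gained windows, and pluripotency genes held less H3.3. The median covered share of the 34 epithelial junction windows was 6.53% on D0 and 2.52% on D3, against 3.82% and 1.77% over all protein-coding genes. Of 26 with a D0 peak, 7 were lost, a larger share than the 13.6% of all such windows. Of the few others among the 34, 4 were gained, also a larger share than the 10.3% of all windows without a D0 peak. Over 19 with both, the median log2 was -0.49. Tjp1 (ZO-1) went from 291.4 to 118.1 and Cdh1 (E-cadherin) from 42.7 to 20.7, while Esrp2, an epithelial splicing factor, went from 20.6 to 55.4 and Dsp (desmoplakin) from 6.49 to 43.2. Of 43 pluripotency windows, 21 held part of a peak on each day, with 4 lost and 4 gained and a median covered share of 0%. Over all windows, 13.6% of those with a D0 peak were lost and 10.3% of those without one were gained. Nanog and Pou5f1 had no peak on either day. Tet2, a cytosine hydroxylase, was lost (55.3 to 0), and Lin28b, an RNA-binding repressor of let-7, went from 11.3 to 33.1. Among genes of other lineages, the medians were -0.91 for hematopoietic genes over 7 windows, -0.67 for endothelial genes over 5, -0.52 for neural genes over 3 and 0.17 for muscle genes over 3. Of the loci the study followed, Adcy7, an adenylate cyclase, had 34.98% of its window covered on D0 and 7.36% on D3, and Terf1, a telomere-binding protein, 4.42% and 8.05%.

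**Figure D4:**
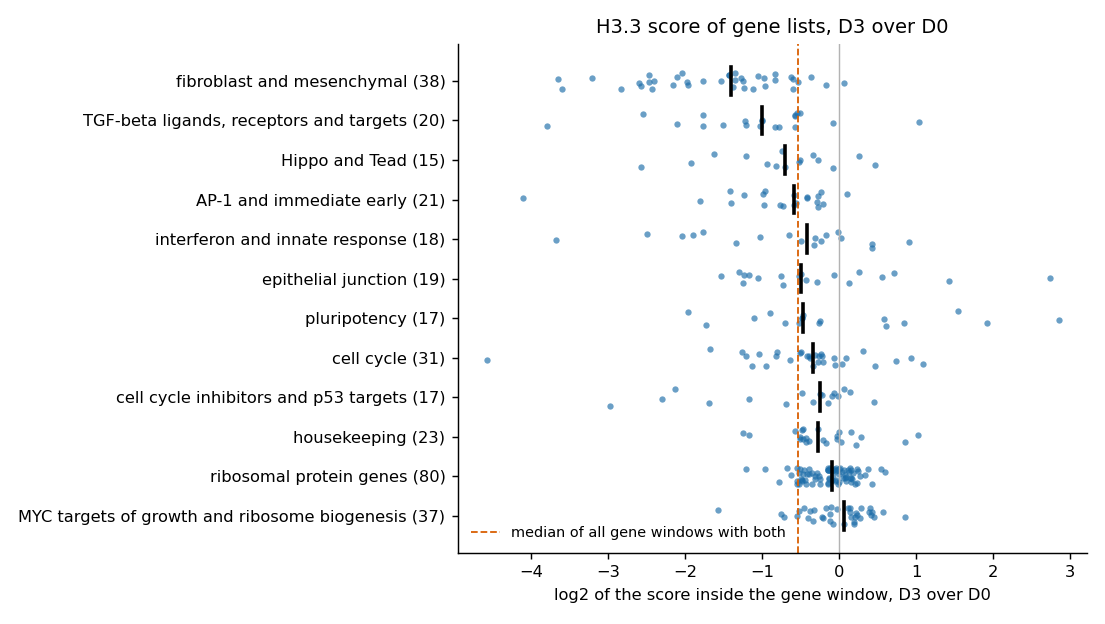
Each point is 1 gene window with parts of peaks on both days, placed by the log2 ratio of its score inside the window, D3 over D0, with the number of windows in brackets; bars are list medians and the dashed line is the median of all windows (-0.54). Fibroblast genes lie furthest left (median -1.40), and MYC targets lie around 0 (median 0.07).

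Of the delivered factors, Klf4 and Sox2 had higher scores at their own loci on D3, together with higher input. Klf4 (chr4:55540013-55545347) went from 1 D0 peak to 2 D3 peaks and from 11.1 to 80.1 in score. Sox2 (chr3:34548927-34551383) went from 10.9 to 41.4. Myc went from 77.7 to 83.6 inside its window and from 96.8 to 83.6 by the midpoint rule, and Pou5f1 had no peak on either day. Input tags per kb in the D3 peaks were 1.41 and 3.06 times the median at Klf4, 4.73 times at Sox2, and 0.892, 3.33 and 2.15 times at Myc. In the D0 peaks of these genes they were 0.928, 0.953 and 1.31 times. Reads of the retroviral copies cannot be told apart from reads of the endogenous exons, so these values are not a measure of H3.3 at the endogenous genes.

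Gained peaks met the later libraries in a pattern that lost peaks did not share. Each list was limited to its 33972 highest scores, the number in the smallest of them. D6T- overlapped 29.2% (28.7 to 29.7) of gained peaks and D6T+ 10.6% (10.3 to 11.0). The same lists overlapped 53.5% and 52.2% of kept D0 peaks and 13.1% and 11.9% of lost peaks. The D6T- list, from the fraction that the study takes as reprogramming, thus held more of the gained peaks. The kept and lost peaks were spread over both day 6 lists nearly evenly. On day 9 the shares of gained peaks were 21.7% for D9T- and 15.8% for D9T+. At days 12 and 16 the order of the fractions was the other one: SSEA-1+ cells, sorted for a surface marker gained during reprogramming, held 11.0% and 7.34%, and SSEA-1- cells 26.3% and 15.6%. In iPSCs and in the embryonic stem cell line ESD3 the shares were 13.6% and 8.63%.

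With the full lists, 29.9% of gained peaks were found in D6T- and not in D6T+, and 5.55% in D6T+ and not in D6T-. Of lost peaks, 15.0% and 11.2% fell into these groups. Gained peaks found both in D6T- and in iPSCs made up 13.7%. In none of the 14 other H3.3 libraries were 16.7% of gained and 17.1% of lost peaks found, and in none of the other reprogramming and pluripotent libraries 30.4% and 42.4%. The MEF library of the transdifferentiation series, a second culture of untreated fibroblasts, overlapped 51.0% of kept D0, 20.9% of lost and 9.46% of gained peaks. The full D4 list of that series, which holds 107983 placed peaks, overlapped 66.9% of lost and 52.8% of gained peaks. A lost peak was therefore more often seen in the second fibroblast culture than a gained one, and most lost peaks were not in it. In that MEF library 7.64% of tags lay in peaks, over 57.2 Mb, against 19.1% and 130 Mb on D0. The part of list size and of peak length in these shares was not tested.

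**Figure D5:**
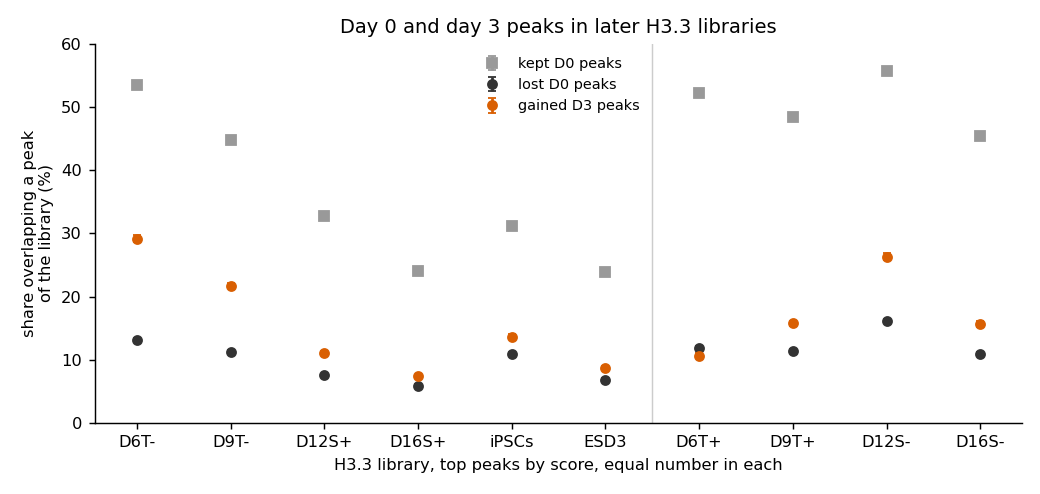
Points give the share (%) of kept D0, lost D0 and gained D3 peaks that overlap one of the 33972 highest-scoring peaks of each other reprogramming or pluripotent H3.3 library, with 95% Wilson intervals smaller than the points. Gained peaks stand above lost ones in D6T- (29.2% against 13.1%) and not in D6T+ (10.6% against 11.9%).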

How the data were processed

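Chromatin immunoprecipitation with sequencing (ChIP-Seq) of H3.3 in D0 and D3 cells was used, each with its own input and 1 library per day. Per the labels and the file headers, the authors aligned reads to mm9 with STAR, removed reads that mapped to several loci and called peaks with HOMER findPeaks in histone style (versions not given in the sources used here), against input, with a peak size of 500 bp, a Poisson p limit of 0.0001 and a fold over input of at least 2 for H3.3 and 4 for the other marks. The deposited normalized tag counts are a signal scaled to 10 M tags, and the deposited fold over input is a ratio. The deposited input tags are a signal that was brought to the scale of 10 M tags by each peak's ratio of normalized to total tags. Deposited p-value columns were not used.

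Peaks on unplaced contigs (113 of D0, 89 of D3) were left out. Classes and genes came from GENCODE vM1 (mm9 coordinates, 22367 genes that code for protein), by peak midpoint, with an overlap of at least 1 bp between days counted as shared. Lists of equal size held the 74595 highest scores. With 1 library per group no test was run: shares carry 95% Wilson intervals, differences Newcombe intervals, score ratios exact Poisson intervals. All of these cover counting error only, and PCR copies are not independent molecules. Genes named were the 6 lost and the 6 gained with the highest scores, and the 6 lowest and the 6 highest ratios with a score of at least 100 on either day. The delivered factors, the loci the study followed and up to 3 members of each list with the largest absolute change in summed score were also named. The same rule on scores inside gene windows, further list members and the ribosomal protein list were chosen after values were seen. The comparison, the members and all gene lists were chosen with earlier results of these data known. Counting was tested on simulated peaks. Python 3.11.15, numpy 2.4.6, pandas 2.3.3, scipy 1.17.1 and matplotlib 3.10.9 were used. A few genes and 1 region that these rules select are not reported here.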

Additional observations from a re-analysis of the deposited data

Results flagged for a closer look

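The input tags, which entered no count of gained or lost peaks of their own, held a strong signal in 4 gained intergenic D3 peaks. The input tags per kb were 28.2 times the median of D3 peaks in a peak on chromosome 17. They were 26.6 times the median in a peak on chromosome 3, 12.9 times in one on chromosome 1 and 11.4 times in one on chromosome 6. All 4 had passed the 2-fold limit over input, with folds of 2.67, 2.12, 2.03 and 2.13. Their part in the gained share was not tested, and they are 4 of 31464 gained peaks.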

How the results depend on the processing

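The lost share of D0 peaks (58.7%) was 53.9% with equal numbers by score, 56.4% with equal numbers by score per kb, 72.5% at a fold over input of at least 4, and 77.3% when at least 50% of a peak had to be covered. The gained share (42.2%) was 45.3%, 48.0%, 66.3% and 54.6% under the same settings. The intergenic difference (-4.30 points) was -4.88 by score per kb and -2.96 at a fold of 4. Lost intergenic minus promoter peaks (18.05 points) gave 10.5 at a fold of 4, 13.3 with 50% covered and 10.6 at exactly 500 bp. Short minus long lost peaks (78.02 points) gave 76.1 with equal numbers, 72.6 at a fold of 4 and 46.0 with 50% covered. H3K4me3 at lost minus kept peaks (-19.8 points) gave -21.1 by score per kb, -21.7 at a fold of 4, -14.6 with 50% covered and -3.93 at exactly 500 bp. Genes gained (1154) numbered 1835 at a fold of 4. Regions on both days (log2 -0.51) gave -0.59 with equal numbers, -0.55 by score per kb and -0.68 at a fold of 4. The AP-1 gene list (-0.69 by midpoint) gave -1.05 at a fold of 4. Gained peaks in D6T- minus D6T+ (24.3 points) gave 19.5 with equal day 6 lists and 21.1 at exactly 500 bp, and lost peaks (3.84 points) gave 8.72 at exactly 500 bp. The direction turned in 5 cases: AP-1 letters in lost minus kept peaks (-0.53 points) were 0.44 with equal numbers, 4.07 with 50% covered and 0.36 at exactly 500 bp, the MYC target list (log2 0.02 by midpoint) was -0.057 at a fold of 4, and lost peaks in D6T- minus D6T+ were -1.06 with equal day 6 lists. The causes were not tested. The other 44 values moved by less than their interval, or by less than 1.5 times for counts. The settings at exactly 500 bp, with equal day 6 lists, for gene lists and with the letters TGACTCA were chosen after seeing the data. No paired analysis was possible because each group held 1 library. The Poisson limit of the caller lay at 17 tags on D0 and 16 on D3, or scores of 6.31 and 6.19. Some listed peaks scored below it, down to 4.82 on D0 and 5.03 on D3. H3.3 too weak to be listed was not detectable at this depth.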
